A study of Mus musculus with 2 samples.

Results

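Genes for receptors of the transmitters glutamate, GABA and glycine, and for the neurexins, neuroligins, contactins and contactin-associated proteins that hold synaptic and axonal membranes together, were examined in C2C12 myoblasts, an established line of mouse muscle precursor cells. They were chosen by a pattern of gene symbols, which uses no activity value, and all RefSeq entries of the deposited table were kept. This gave 90 entries of 71 gene symbols among 24165 entries of 20128 symbols. Transcription was measured by GRO-seq, in which engaged polymerases in isolated nuclei are allowed to run on with a bromouridine label, so that reads report where polymerases were engaged and on which strand. The cells were untreated and at 80% confluency, and the authors pooled the reads of 2 replicate libraries. The table therefore gives a single gene activity for each entry, in RPKmM, the density of sense-strand reads in the gene body, corrected for its mappable length and for sequencing depth. The word Inactive stands in place of a value where the authors could not separate an entry from the background of large regions without genes. With a single pooled value there is no spread between libraries and no test, and the number of reads behind each value is not given. All counts and medians below are descriptions of this pool.

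Fast excitation in the brain is carried by the ionotropic glutamate receptors (AMPA, kainate and NMDA types), which are tetramers of related subunits, and fast inhibition by the GABA-A and glycine receptors, which are pentamers of the Cys-loop family. Neurexins on the presynaptic side bind neuroligins on the postsynaptic side, while contactins and their associated proteins act along axons and at nodes of Ranvier. Muscle fibres are excited by acetylcholine, through nicotinic receptors that belong to the same Cys-loop family as the GABA-A receptors. The factor REST binds an element named RE1 and is known to repress neuronal genes in other cell types.

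The cells carried the markers of their label. All 7 myoblast markers were active, with 2.39 RPKmM for Myod1, 5.03 for Myf5, 72.45 for Des, 8.08 for Cdh15, 15.62 for Chrna1, 3.63 for Vcam1 and 13.29 for Itga7. Of 10 neuronal markers, Rbfox3, Snap25 and Elavl4 were inactive in every entry, Syt1 and Elavl3 were listed at 0.01 and Syp at 0.11. The remaining neuronal markers were not low, with 0.81 for Syn1, 0.58 and 0.62 for the entries of Map2, 6.01 for Tubb3 and 8.43 for Nefl. Among the glial markers, Aqp4, S100b, Mog, Olig1, Olig2 and Sox10 were inactive, Gfap had an entry at 0.01 and another inactive, and the entries of Mbp lay at 0.01 to 0.02.

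Among the 90 receptor and adhesion entries, 65 (72.2%) were marked Inactive, against 29.8% of all entries. By gene symbol, 51 of 71 were inactive in every entry, against 31.3% of all symbols. The 25 active entries, of 20 genes, had a median activity of 0.05 RPKmM, with quartiles of 0.02 and 0.14. The median of all active entries was 0.87, with quartiles of 0.22 and 1.99. An activity of at least 0.1 was reached by 7 of the 90 entries (7.78%), against 57.2% of all entries, and an activity of at least 1 by a single entry, that of Nlgn2, against 32.3%. Of the active entries, 18 of 25 (72%) lay below 0.1, where 18.5% of all active entries lay, and 3 of 25 (12%) were listed at 0, against 0.908%. A few transcribing cells and many cells transcribing rarely cannot be told apart by a low density in this assay. The 16 genes with several entries had the same state in all of them, 12 inactive and 4 active, and mixed states were rare in the whole table as well, at 86 of 2999 such symbols (2.87%).

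**Figure D1:**
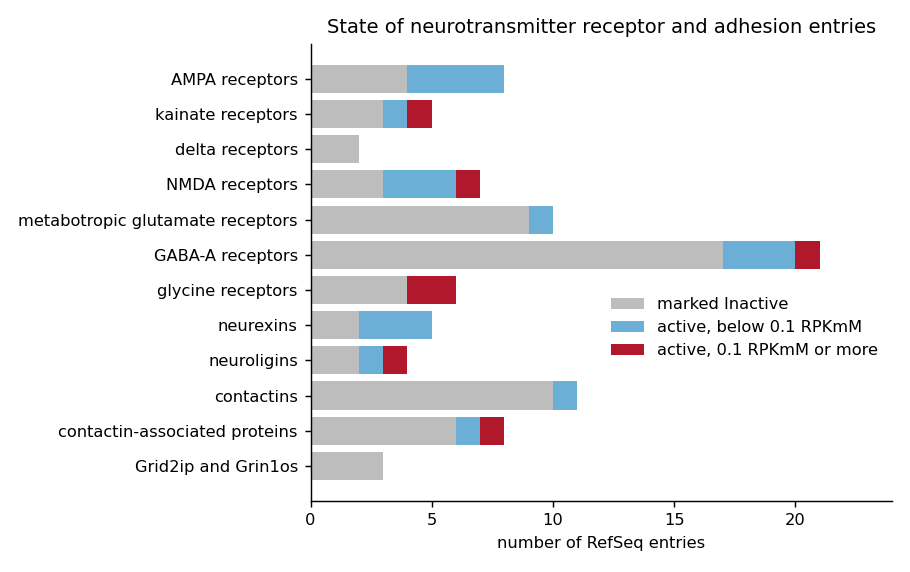
The number of RefSeq entries (horizontal axis) in each family, divided into entries marked Inactive (grey), active entries below 0.1 RPKmM (blue) and active entries at 0.1 RPKmM or more (red). Every family has grey entries, the GABA-A receptors the most with 17 of 21, and red covers 7 entries in all.

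Promoters of 4 genes are shown because they span the states described below, from the most active gene, Nlgn2, through Glrb to the inactive neighbour of Glrb, Gria2, and the inactive Gabra6. Each is the 250 bases before the RefSeq start on the minus strand of assembly GRCm38.p6, read in the direction of transcription, with every CpG in capitals. The positions are chr11:69837785-69838034 for Nlgn2, chr3:80913661-80913910 for Glrb, chr3:80802836-80803085 for Gria2 and chr11:42321073-42321322 for Gabra6.
Nlgn2: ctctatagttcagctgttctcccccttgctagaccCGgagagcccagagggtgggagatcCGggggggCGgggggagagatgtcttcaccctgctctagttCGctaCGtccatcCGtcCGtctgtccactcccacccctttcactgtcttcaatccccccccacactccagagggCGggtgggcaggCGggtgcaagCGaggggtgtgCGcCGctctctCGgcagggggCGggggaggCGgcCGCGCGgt
Glrb: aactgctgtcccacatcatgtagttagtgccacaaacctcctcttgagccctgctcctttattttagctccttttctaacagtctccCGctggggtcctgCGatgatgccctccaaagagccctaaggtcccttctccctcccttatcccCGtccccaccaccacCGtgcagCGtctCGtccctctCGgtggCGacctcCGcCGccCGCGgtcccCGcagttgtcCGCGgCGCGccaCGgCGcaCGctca
Gria2: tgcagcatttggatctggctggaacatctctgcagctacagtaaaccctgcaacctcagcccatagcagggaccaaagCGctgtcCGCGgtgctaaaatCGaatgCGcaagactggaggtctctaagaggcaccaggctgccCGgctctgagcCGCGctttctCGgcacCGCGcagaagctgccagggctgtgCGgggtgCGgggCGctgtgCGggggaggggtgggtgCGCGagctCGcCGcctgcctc
Gabra6: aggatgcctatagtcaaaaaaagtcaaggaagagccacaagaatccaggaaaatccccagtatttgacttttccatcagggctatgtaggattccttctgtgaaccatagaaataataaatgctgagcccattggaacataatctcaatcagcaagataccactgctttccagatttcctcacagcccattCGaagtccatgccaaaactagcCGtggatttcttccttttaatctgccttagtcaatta
These stretches hold 18 CpG in Nlgn2, 20 in Glrb, 19 in Gria2 and 2 in Gabra6, with 67.6%, 62.4%, 64.8% and 40.8% G and C. The inactive Gria2 thus had about as many CpG as the active Nlgn2 and Glrb, and only Gabra6 of these 4 was poor in them.

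The adhesion genes held the most active entry, and the share of inactive entries in their families ran from 40% in the neurexins and 50% in the neuroligins to 75% in the contactin-associated proteins and 90.9% in the contactins. These families are small, and by gene symbol the order changed. The shares were then 33.3% for neuroligins, 66.7% for neurexins, 71.4% for contactin-associated proteins and 83.3% for contactins. Nlgn2, a neuroligin known from inhibitory synapses, had an activity of 1.85 RPKmM, above 72.8% of all active entries and above every other gene of the set. It occupies chr11:69636624-69651286 of mm9, minus strand, and spans 14.7 kb. Nlgn3, a neuroligin found at both kinds of synapse, was active at 0.06, and both entries of Nlgn1, the neuroligin of excitatory synapses, were inactive. On chromosome X the annotated 3′ end of Med12, at 3.08 RPKmM on the same strand, runs 1.63 kb past the 5′ end of Nlgn3, and the part of Med12 reads in the value of Nlgn3 was not tested. Among the neurexins, Nrxn3 was active in 3 entries, at 0.03, 0.03 and 0.07, while Nrxn2 was inactive. The highest of the Nrxn3 values belongs to NM_001252074, and with a pooled value no error can be put on the difference between its entries.

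Contactins are immunoglobulin-domain proteins tethered to the axonal membrane. Of their 11 entries, 10 were inactive, covering all entries of Cntn1, Cntn2, Cntn4, Cntn5 and Cntn6, and Cntn3 was active at 0.05. Cntnap1 encodes Caspr, the partner of contactin at the paranodal junction of myelinated axons, and had an activity of 0.62, above 41.2% of all active entries. It occupies chr11:101031837-101052038 of mm9, plus strand. The closest gene upstream on its strand, Tubg2, was inactive. Cntnap4 was active at 0.07. Cntnap2, Cntnap3, Cntnap5a, Cntnap5b and Cntnap5c were inactive, so that 6 of 8 entries of this family were marked Inactive.

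Of the 22 entries of ionotropic glutamate receptor subunits, with the delta receptors counted among them, 12 were inactive and 2 reached 0.1 RPKmM. Grik5, a kainate subunit that requires a partner such as Grik2 to form a channel, had the highest activity among them, 0.38, above 31.6% of all active entries. It occupies chr7:25794872-25857388 of mm9, minus strand. Grik2 was active at 0.02, and Grik1, Grik3 and Grik4 were inactive. Among the NMDA subunits, Grin2d, a glutamate-binding subunit at chr7:53087253-53126298 of mm9, minus strand, had 0.14, while Grin1, the subunit that every NMDA receptor needs, was listed at 0.01. Grin3b was at 0.01 as well, and Grin2a was called active but its value was rounded down to 0. Grin2b, Grin2c and Grin3a were inactive. Wdr18, at 0.46 on the same strand, ends 1.47 kb before Grin3b, and AA543186, at 0.2, lies 8.26 kb before Grin1. Their part in these values was not tested.

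The AMPA subunits split into pairs. Gria1 had 0.09 in both entries, and Gria4 was called active in both entries with a listed value of 0, while Gria2 and Gria3 were inactive in both entries each. Gria2 is the subunit that makes AMPA receptors impermeable to calcium. The delta receptor gene Grid1 was inactive. Of the metabotropic glutamate receptors, which signal through G proteins, 9 of 10 entries were inactive. Among them were the group I receptor Grm5, the group II receptors Grm2 and Grm3, and Grm4, Grm6 and Grm8 of group III. Grm7, of group III, was active at 0.02. Grid2ip, which encodes a protein that binds the delta receptor, and Grin1os, a transcript annotated opposite Grin1, matched the symbol pattern although they encode neither a receptor subunit nor an adhesion protein, and their 3 entries were inactive.

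**Figure D2:**
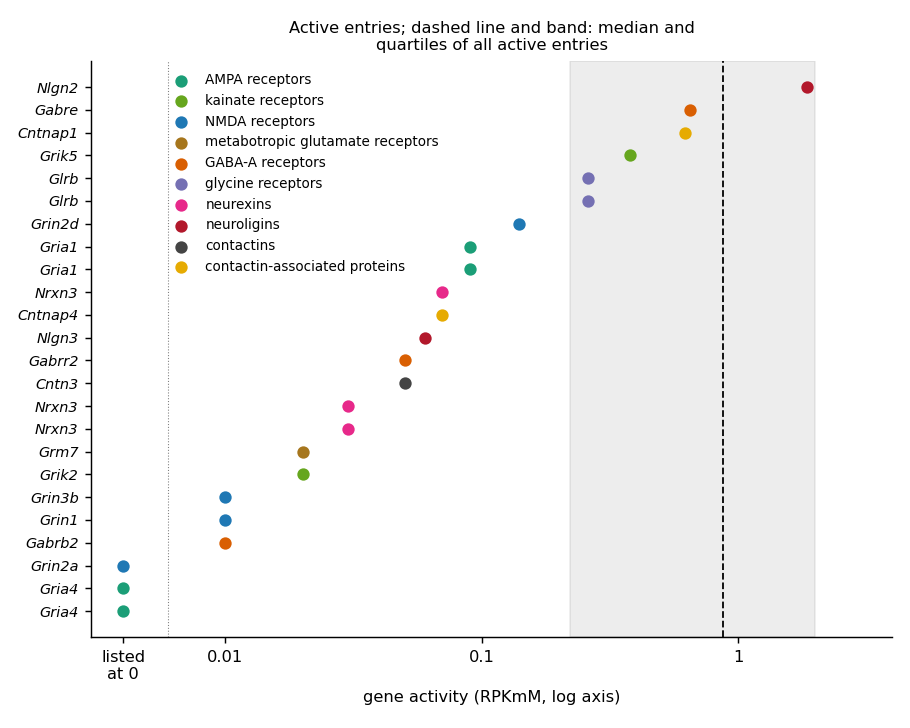
Gene activity (horizontal axis, RPKmM, log scale, values listed at 0 set apart at the left) of 24 active entries, 1 point each, coloured by family. The dashed line is the median of all active entries, 0.87, and the band runs from 0.22 to 1.99. Nlgn2 at 1.85 is the single point right of the line, and 18 points lie left of the band.

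A GABA-A receptor is usually built from alpha and beta subunits with a gamma or delta subunit. Of the 21 entries, 17 were inactive. Of the alpha subunits, Gabra2, Gabra3, Gabra4, Gabra5 and Gabra6 were inactive. Of the beta subunits, Gabrb2 was at 0.01 and Gabrb1 was inactive. The gamma subunits Gabrg1 and Gabrg3 were inactive, as were Gabrd, Gabrp and Gabrq. The rho subunit Gabrr2 had 0.05, and Gabrr1 and Gabrr3 were inactive. Ube2j1, at 1.99 RPKmM on the same strand, ends 10.6 kb before Gabrr2, and its part in that value was not tested.

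The exception was Gabre, the epsilon subunit, with 0.65 RPKmM, above 42.2% of all active entries. It occupies chrX:69501338-69520142 of mm9, minus strand. The annotated microRNA genes Mir224 and Mir452 lie inside it on the same strand, so reads of their precursor cannot be told apart from reads of Gabre in this table. No other gene of the table lies within 15 kb upstream of Gabre on its strand.

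Many GABA-A genes lie side by side. In mm9, groups of member genes less than 1000 kb apart held 20 genes in 7 groups, 5 of them formed by GABA-A genes. The group of Gabrg1, Gabra2, Gabra4 and Gabrb1 on chromosome 5, spanning 1387 kb, was inactive throughout. On chromosome 7, Gabrg3 and Gabra5 lie side by side and were inactive. On chromosome 11, Gabrb2, at 0.01, lies beside the inactive Gabra6. On chromosome X, Gabre was active, and Gabra3 and Gabrq in the same 587 kb were inactive. On chromosome 4, Gabrr2 was active and Gabrr1 was not. Over all families, chromosome X held 9 entries, of which 7 (77.8%) were inactive, against 41.1% of all entries of that chromosome. Gabre and Nlgn3 were the active genes there, and Gabra3, Gabrq, Glra2, Glra4 and Gria3 were inactive.

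**Figure D3:**
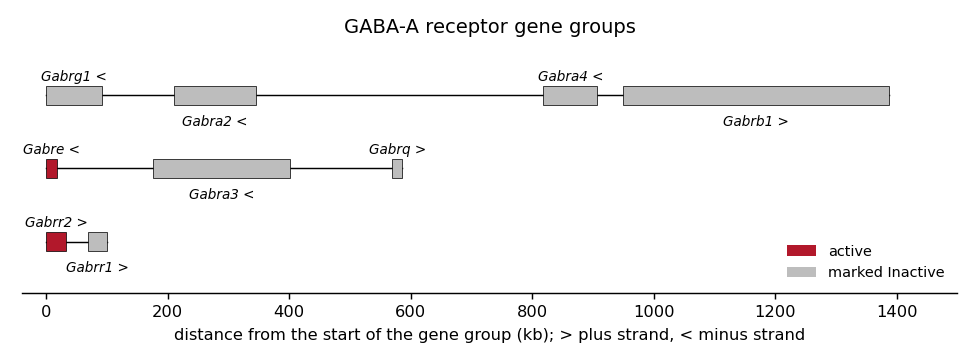
The 3 groups of GABA-A receptor genes on chromosomes 5, X and 4, from top to bottom, drawn to scale, with distance from the start of each group in kb on the horizontal axis, genes as boxes and the strand as > or <. Active genes are red and inactive genes grey. The widest group is grey throughout, and in both others an active gene lies beside inactive ones.

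Glycine receptors are formed by alpha subunits with the beta subunit Glrb, which binds the scaffold protein gephyrin. Both entries of Glrb had 0.26 RPKmM, above 26.5% of all active entries, whereas Glra1, Glra2, Glra3 and Glra4 were inactive. Gphn, the gene for gephyrin, had 0.47. Glrb occupies chr3:80647521-80717582 of mm9, minus strand, beside the inactive Gria2, and both lie within 229 kb on the same strand.

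Neuronal genes are often long, and a long gene body collects more reads at the same density. The median annotated length of the 70 genes with a position was 192 kb, against 20.8 kb over all genes of the table with one. Of the 57 entries in genes of at least 100 kb, 44 (77.2%) were inactive, against 25.4% of all entries of such length, and none reached 0.1 RPKmM, against 58.3%. Of the 32 entries in shorter genes, 20 (62.5%) were inactive, against 28.5%, and 7 reached 0.1, against 59.3%. All 6 genes at 0.1 or more (Nlgn2, Gabre, Cntnap1, Grik5, Glrb and Grin2d) were therefore between 14.7 and 70.1 kb long, while the 14 active genes below 0.1 had a median length of 307 kb. The inactive share did not rise steadily with length. It was 64.3% below 30 kb, 61.1% from 30 to 100 kb, 95% from 100 to 300 kb and 67.6% from 300 kb. In the same order, the shares of all entries were 31.9%, 21.1%, 22.4% and 35.4%. The call of activity reached lower densities in long genes. Values listed at 0 were found for 37 of 775 entries in genes of 300 kb or more and for 8 of 13178 in genes below 30 kb, and the 3 such entries here, of Gria4 and Grin2a, were all in genes of 300 kb or more.

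**Figure D4:**
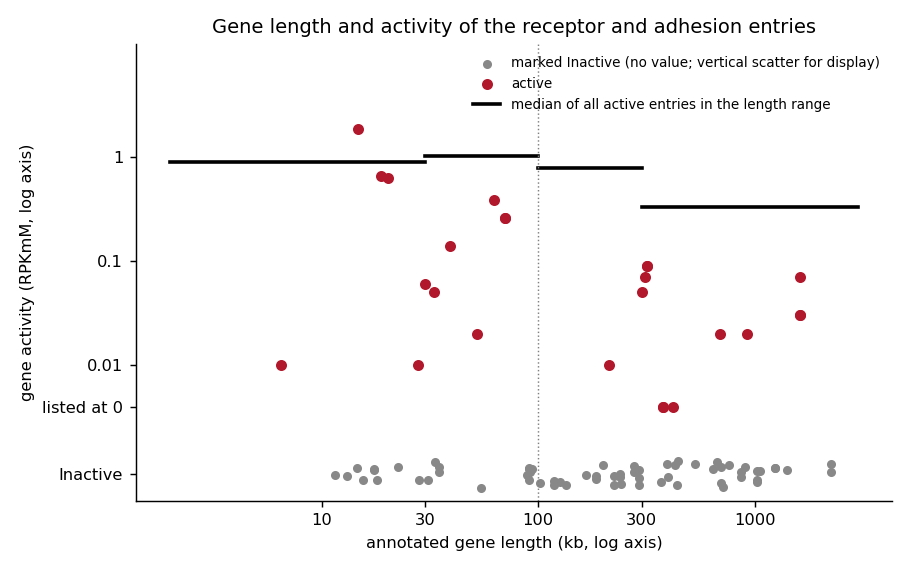
Gene activity (vertical axis, RPKmM, log scale) against annotated gene length (horizontal axis, kb, log scale) for entries with a position. Red points are active entries, grey points at the bottom are entries marked Inactive, black bars are the medians of all active entries in each length range, and the dotted line marks 100 kb. No red point right of that line reaches 0.1, where the median of all active entries is 0.78 from 100 to 300 kb and 0.33 from 300 kb.

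Promoter windows were taken from a RefSeq table of assembly GRCm38.p6, each from 250 bases before to 50 bases after a start. Windows were found for 48 of the 71 genes (67.6%). Among the others were Cntnap1, Cntnap4, Cntnap5a, Cntnap5c, Gabrd, Glra1, Gria1, Gria3, Grid1, Grik1, Grin2a, Grin2b, Grin3a, Grm4, Grm5, Nlgn3 and Nrxn2. As fewer than 80% of the genes had a window, a check of CpG content over the whole set is void, and the values that follow describe single genes. The ratio of observed to expected CpG had a median of 0.625 over the 18750 windows of 15199 genes of the deposited table, with quartiles of 0.303 and 0.838. It was 0.736 for Nlgn2, 0.721 for Gabre, 0.962 for Glrb, 0.848 for Grin2d and 0.277 for Grik5. Among inactive genes it ranged from 0 for Gabra3 to 1.16 for Grik4, and it was 1.01 for Grik3 and 0.804 for Gria2. High and low ratios thus occurred in both states.

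The RE1 consensus, 21 letters with 18 fixed bases, was searched on both strands with at most 4 mismatches at the fixed bases. A match was found in 189 of all 32851 promoter windows (0.575%), in 134 of the 18750 windows of genes in the deposited table (0.715%), and in 3 of the 64 windows of receptor and adhesion genes, in Gria2, Cntn2 and Cntnap5b. These 3 genes were inactive, as were the genes of 45 of the 64 windows, so nothing is read from their state. The matches lie at chr3:80802989-80803009 on the plus strand, chr1:132543044-132543064 on the plus strand and chr1:99772383-99772403 on the minus strand of GRCm38.p6. They are shown in the direction of the motif, with the bases that match its fixed positions in capitals.
Gria2: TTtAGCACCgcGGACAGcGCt
Cntn2: TTaAGgACCagGGAgtGaGCC
Cntnap5b: TTCAGCACCagGGtgAagGaC
The match in Gria2 has 16 of 18 fixed bases and lies, on the opposite strand, within the promoter printed above, while the others have 14 of 18. A match is a resemblance of letters, and binding was not measured. Rest was active at 1.07 RPKmM, and so were the genes of its partners and of enzymes that act with it, as none of the 16 entries of this list was inactive. Their values were 1.95 for Rcor1, 1.37 and 1.51 for Rcor2, 3.13 and 3.24 for Rcor3, 2.35 for Ehmt1, 1.97 and 1.87 for Ehmt2, 2.49 for Kdm1a, 1.46 and 1.53 for Sin3a, 1.15 and 0.87 for Sin3b, 0.77 for Hdac1 and 1.83 for Hdac2.

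Genes for proteins that anchor and traffic these receptors were inactive at shares nearer to the 29.8% of all entries, which is the background for the counts that follow, and no test was made. Of 13 entries for inhibitory scaffolds and trafficking factors, 2 (15.4%, Lhfpl4 and Shisa7) were inactive, and the active ones had a median of 1.11 RPKmM, led by Ubqln1 at 4.46, Trak1 at 2.27 and Zdhhc3 at 2.1. Of 54 entries for glutamatergic scaffolds and auxiliary subunits, 13 (24.1%) were inactive. The active ones had a median of 0.13, against 0.87 for all active entries of the table. Within this list, the auxiliary subunit genes of the Cacng, Cnih and Neto families were inactive or at most at 0.09. The higher values belonged to other genes of the list. Dlg4, the gene for PSD-95, had 5.36, and 2 entries of Dlgap4 had 4 and 3.96. Of 38 entries for partners of neurexins, neuroligins and contactins, 16 (42.1%) were inactive. Lin7c had 4.13, and Ncam1 had 3.72 in 2 entries. For transmitter synthesis and transport, 16 of 24 entries (66.7%) were inactive, among them all entries of Gad1, Gad2, Slc32a1, Slc17a6 and Slc17a7, which mark GABA and glutamate neurons, while the metabolic enzyme Glul had 3.82. Of the GABA-B receptor, which signals through G proteins and needs both subunits at the cell surface, Gabbr1 had 6.36 and Gabbr2 was inactive.

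Other receptor and channel families were set beside these genes without a test. Of 16 nicotinic acetylcholine receptor entries, 11 (68.8%) were inactive, close to the share of the receptor and adhesion genes. The active ones had a median of 1.69 RPKmM, against 0.05 for the receptor and adhesion genes, and the highest were the muscle subunits Chrna1 at 15.62, Chrnd at 2.74, Chrnb1 at 1.69 and Chrng at 1.26. Chrne, the muscle subunit of the adult receptor, was inactive. Of 49 voltage-gated channel entries, 29 (59.2%) were inactive and the active ones had a median of 0.06. The highest was the noncoding Kcnq1ot1 at 2.04. Of 43 aminergic and muscarinic receptor entries, 23 (53.5%) were inactive, and the active ones had a median of 0.065 and included the kinase gene Adrbk1 at 1.09 and Adrb1 at 0.15.

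**Figure D5:**
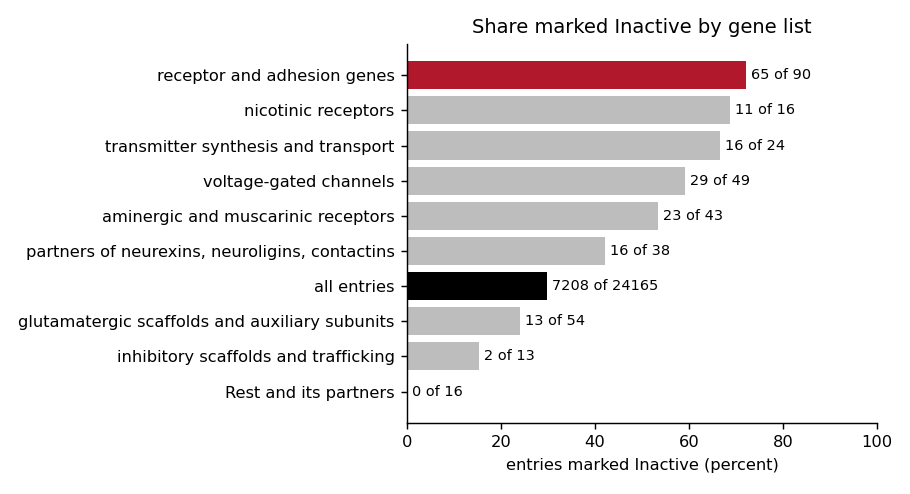
The percentage of entries marked Inactive (horizontal axis, from 0) in each gene list, with the number of inactive entries and of all entries beside each bar. The receptor and adhesion genes (red) are at 72.2%, all entries of the table (black) at 29.8%, and the list of Rest and its partners at 0.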

How the data were processed

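GRO-seq was performed on 2 replicate libraries of untreated C2C12 myoblasts. The submitters' processing notes name CASAVA 1.8, Bowtie2 and the assembly mm9. The authors retained uniquely mapped reads after stepwise trimming, dropped those in rRNA or tRNA repeats, combined both libraries and deposited gene activity in RPKmM, which is RPKM over mappable bases, rounded to 2 decimals. Pooling hides the variation between libraries. The deposited word Inactive marks entries that did not exceed gene deserts by their Poisson test. Library depths were not used here.

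Members were found by symbol pattern. Members and lists were chosen with earlier results of these data known. Member genes are named with their state, and values are given for entries of at least 0.1 RPKmM, for the extremes of each family, for the 3 highest entries of each other list and for every gene of lists of 12 or fewer. Some genes that this rule names are not reported here, although counts, shares and medians include them. The promoters printed were chosen after their values were seen. Alternatives were 1 entry per symbol, other limits of inactivity and of length, and the removal of genes that matched the pattern by name only. Gene positions and lengths came from GENCODE vM1 on NCBIM37 (mm9) for 93.8% of entries and 89 of 90 member entries, by symbol or by RefSeq synonym. Promoter windows of GRCm38.p6 were used for sequence only, and no coordinates were converted. Protein motifs were not searched. Counting and motif search were tested on simulated data. Python 3.11.15, numpy 2.4.6, pandas 2.3.3, scipy 1.17.1 and matplotlib 3.10.9 were used.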

Additional observations from a re-analysis of the deposited data

How the results depend on the processing

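Of 70 values recomputed under alternative settings for 26 results, 69 stayed within the 95% exact binomial interval of a share or within 1.5 times of a count or median. The void comparison of promoter CpG content is not among them. Many of the 70 values could hardly move, so this count does not measure robustness. Families without Grid2ip cannot change when it is removed. The highest and lowest entry per symbol gave equal shares, because no member gene had mixed states. Families of few entries have wide intervals. The interval of the share of inactive entries, 61.8 to 81.1%, treats entries as independent, which transcripts of a gene are not. The exception was this share when active entries below 0.1 RPKmM were counted as inactive too, which raised it from 72.2% to 92.2%. The share lay between 62.5% (genes below 100 kb) and 77.2% (genes of at least 100 kb) under the other alternatives, of which these lengths, the autosomes and the removal of Grid2ip with Grin1os were chosen after seeing the data. The median activity of active entries ranged from 0.05 to 0.065, and their geometric mean was 0.0609 with a pseudocount of 0.01 and 0.0440 with 0.001. In families of few entries the share moved with the unit counted, as for neurexins, where 40% of entries but 66.7% of symbols were inactive. No paired analysis was possible because both libraries were pooled into a single value. The read number behind a value is not given and was not estimated, so no counting error was computed. Values of 0.01 and 0.02 are within a few rounding steps of 0.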

Other observations

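Of the 20 active genes, 7 had another gene of the table ending within 15 kb upstream of, or across, their start on the same strand, and 13 had none. Among the latter were Glrb, Grik5, Gabre and Gria1. The same share was not computed for inactive members or for all genes, so nothing is read from this count. Nlgn2 had Tnk1, at 0.01 RPKmM, 12.8 kb upstream, and Grin2d had Syngr4, at 0.02, 14.3 kb upstream.

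The letters CCGCCC occurred on either strand in 28 of the 64 promoter windows of the set (43.8%), against 50.4% of the windows of genes in the table, and TATAAA in 7 (10.9%), against 9.91%. These windows cover 48 of the 71 genes, some with several windows, so the shares do not describe the whole set.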
